A study of Homo sapiens with 6 samples.

Results

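The genes DYNC1H1, SPTBN1 and CLTC encode very long cytoskeletal and trafficking proteins, and they carried 46 of the 7772 AGO2 peaks in the table. The members are all peaks whose gene name is one of these 3 symbols: 19 for DYNC1H1, 15 for SPTBN1 and 12 for CLTC. The genes were chosen by their number of listed peaks and the coding share of those peaks, so both are a description and were not tested. The peaks come from AGO2 HITS-CLIP in 22RV1, an established human prostate cancer cell line, with 3 libraries from cells given a miR-194 mimic and 3 from cells given a negative control. Both were transfected at 20 nM, and cells were crosslinked by ultraviolet light 24 h later. AGO2 was pulled down with the monoclonal antibody 4F9. The labels say neither if replicates were separate cultures nor which libraries entered the table. It holds 1 score per peak, the authors' own, and none per library or group, so no replicate error can be given, depth is unknown, and mimic and control cells cannot be told apart in any value below. Of 10 markers of luminal prostate cells and of 22RV1, 3 had a peak, which does not show the others to be silent.

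DYNC1H1 encodes the heavy chain of cytoplasmic dynein, the motor that carries cargo towards the minus ends of microtubules; its N-terminal tail assembles the complex and its C-terminal part is the ring-shaped motor. SPTBN1 encodes beta-II spectrin, which binds actin at its N-terminus and forms, with alpha spectrin, the elastic mesh under the plasma membrane. CLTC encodes the clathrin heavy chain, whose legs assemble into the lattice around coated vesicles. AGO2 carries a microRNA that pairs with target RNA mainly through its seed. Target sites are best known from 3' UTRs, and AGO2 crosslinking also finds them in coding sequence.

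The mature miR-194-5p sequence from RefSeq (GRCh38.p14) is shown with its seed, bases 2 to 8, in capitals, because every site below is read against it. The human genome has copies of it at MIR194-1 on chromosome 1 and MIR194-2 on chromosome 11.
miR-194-5p: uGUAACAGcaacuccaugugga
A full match (8mer) reads CTGTTACA in the mRNA. A 7mer-m8 reads CTGTTAC, a 7mer-A1 TGTTACA and a 6mer TGTTAC, and a listed site without the 6mer is called a variant. Below, a 7mer match means any of the first 3 classes.

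The coding exon peaks of the 3 genes held 6 such matches, printed here with 30 bases of mRNA around each, because they mark most of the highest-scoring peaks of the map. The windows are sense-strand GENCODE 29 sequence (GRCh38), and capitals mark the bases that match the seed site.
DYNC1H1 exon 25, 7mer-m8: gcttgctgagtCTGTTACggaagttgagat
DYNC1H1 exon 27, upstream 7mer-A1: caccagagagaTGTTACAaggtccttgatc
DYNC1H1 exon 27, downstream 7mer-A1: gcaaactgatgTGTTACAgcagttgtcaat
SPTBN1 exon 13, 8mer: gtgtggaagacCTGTTACAgaagcacaccc
SPTBN1 exon 26, 7mer-A1: gcatgtcacgaTGTTACAagaacgattccg
CLTC exon 30, 7mer-m8: tgtctgtttacCTGTTACgatcttttaagg
The upstream DYNC1H1 exon 27 site and the SPTBN1 exon 26 site were listed with the same 9 bases, gaTGTTACA. They stand in different reading frames: the T of the 6mer was the third base of its codon in DYNC1H1 (residue 1820) and the second in SPTBN1 (residue 1735).

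Peaks lay almost entirely in coding exons in each gene. Coding exons held 18 of 19 peaks in DYNC1H1, 14 of 15 in SPTBN1 and 10 of 12 in CLTC. Together that was 42 of 46 (91.3%, exact Clopper-Pearson 95% interval 79.2 to 97.6%, counting error only), beside 36.1% of the 7117 peaks with a gene name. Because the genes were chosen by this share and peaks of 1 mRNA are not independent, the interval does not test it against 36.1%. The remaining 4 were 3 peaks in 3' UTRs and 1 in a DYNC1H1 intron. By number of coding exon peaks DYNC1H1 ranked 1, SPTBN1 2 and CLTC 4, the last tied with AHCTF1. They were ranked among 1591 genes with such a peak, of which 1036 had a single one.

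**Figure D1:**
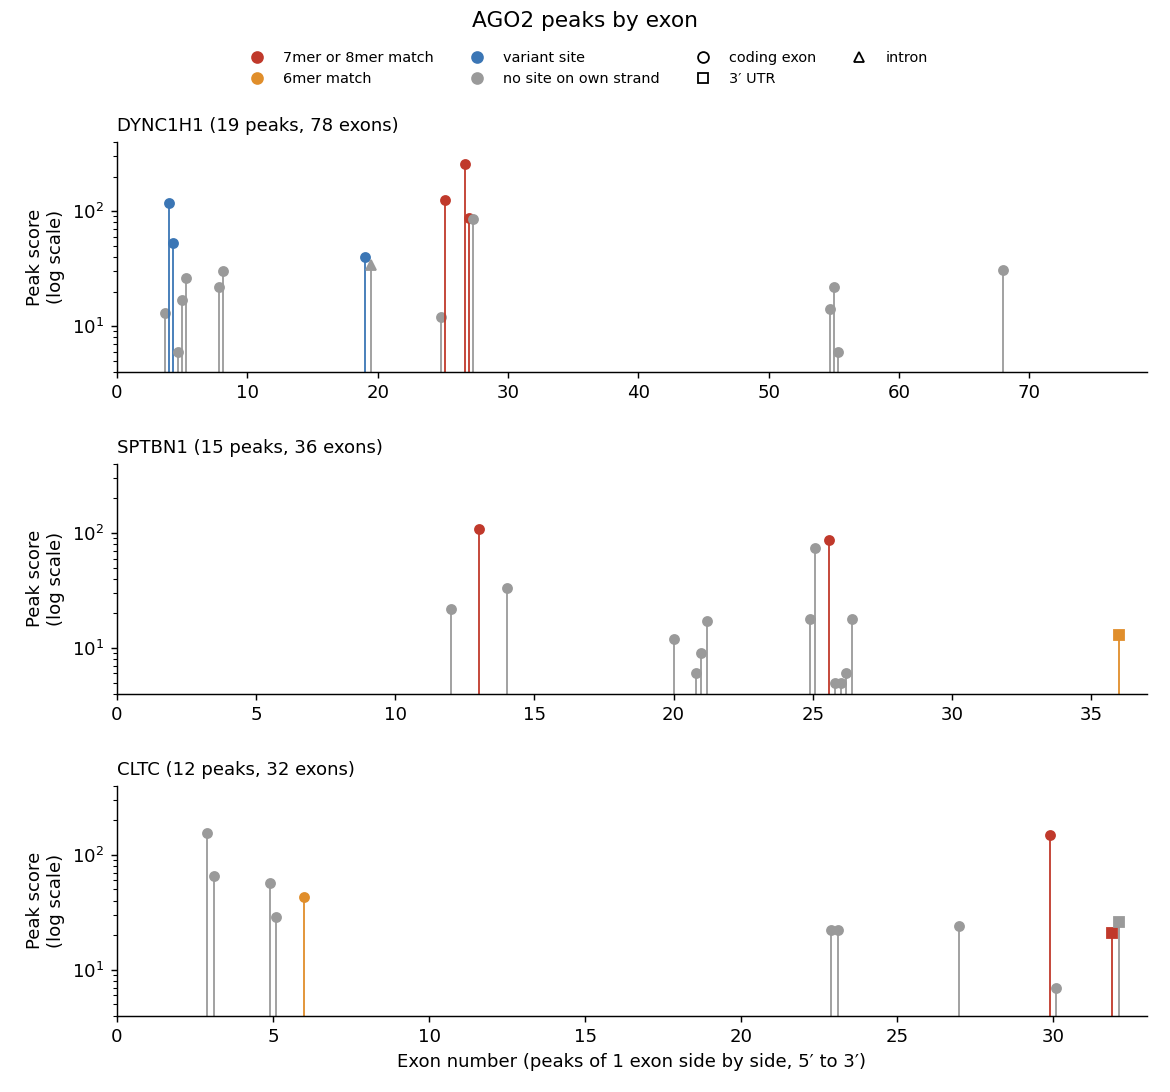
Score of each peak (log axis) against exon number for the 3 genes, with 1 lollipop per peak coloured by its listed miR-194 site and shaped by the part of the gene. The 18 coding peaks of DYNC1H1 occupy 8 of 78 exons, and the highest, 257, is in exon 27.

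In DYNC1H1 the peaks lay mostly in the 5' part of the coding sequence. The 13938 coding bases span 78 exons, of which 8 held coding peaks, from exon 4 to exon 68. Of the coding peaks 14 lay 5' of the coding midpoint and 4 lay 3' of it. No peak lay in exons 28 to 54, a run of 4697 coding bases (33.7% of the total). Exons 4 to 27 cover residues 173 to 1906 of 4646, and where the N-terminal tail ends along them was not mapped.

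The top of the DYNC1H1 map was exon 27, which encodes residues 1812 to 1906. Its 3 peaks scored 257 (chr14:102472226-102472320, plus strand, hg19), 87 (chr14:102472323-102472457) and 86 (chr14:102472460-102472521). The peaks scoring 257 and 87 each held 1 of the exon 27 7mer-A1 sites printed above, and the peak scoring 86 had no listed site. The sites lie 98 bases apart, both in the mRNA and in the table's coordinates. Only 18 of 386 coding peaks with a 7mer match in the whole table scored above 257.

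Exon 25, encoding residues 1684 to 1746, held the third DYNC1H1 match. Its peak at chr14:102471126-102471287 scored 126, with the 7mer-m8 at residue 1720, and a peak of 22 bases just upstream scored 12 with no site. Exons 25 and 27 thus contain all 3 of the 7mers in the DYNC1H1 coding sequence.

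The other DYNC1H1 sites on the transcribed strand were variants with another base in place of the first T of TGTTACA. They are shown because 1 of their peaks reached the scores of the 7mer peaks, and capitals mark GTTACA, the part shared with the 7mer-A1.
DYNC1H1 exon 4, upstream variant: gaaaagccaaaaGTTACAgactttggtgat
DYNC1H1 exon 4, downstream variant: atttcttaatcaGTTACAatctggagttaa
DYNC1H1 exon 19, variant: ggcttctgaaagGTTACAtgaagataaata
In exon 4 the peak with the upstream variant scored 118 (chr14:102446158-102446255) and that with the downstream one 53 (chr14:102446260-102446311), while the first peak of the exon scored 13 with no site. The exon 19 peak scored 40 (chr14:102467339-102467433). Of 168 variant sites listed in coding exon peaks of all genes, 120 (71.4%) likewise hold GTTACA.

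Of the 12 DYNC1H1 coding peaks without a listed site on their own strand, 7 scored above 15, the median of all peaks. Exon 5 held peaks scoring 6, 17 and 26, exon 8 peaks scoring 22 and 30, exon 55 peaks scoring 14, 22 and 6, and exon 68 a single peak scoring 31. The first exon 5 peak is only 3 bases long. Exons 55 and 68 encode residues 3472 to 3542 and 4092 to 4133, in the C-terminal motor part, and neither had a listed site. The peak of 86 in exon 27 was the highest of this kind in the gene, beside its matched neighbours.

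Some DYNC1H1 peaks reached past the spliced exon. The peak in exon 19 ended 32 bases beyond the exon's last base, and after a gap of 3 bases came the intron 19 peak (chr14:102467437-102467519), which scored 34. The peaks of exon 5 spanned 219 bases where the exon has 187. The exon 5 peak scoring 26 listed a 6mer on the opposite strand, and its 9 listed bases were not found in exon 5 of the spliced mRNA.

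In SPTBN1 the coding peaks lay mostly 3' of the coding midpoint. They occupied 7 of 36 exons, all between exon 12 and exon 26, with 3 peaks 5' of the coding midpoint and 11 on its 3' side. The first 11 exons, which include the start of the coding sequence where the actin-binding part is encoded, had none. The table numbers exons 13 and 14 as 12 and 13 of a shorter transcript (NM_178313), and here all exons follow NM_003128.

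Only 3 SPTBN1 peaks scored above 33. The highest was the exon 13 peak with the 8mer, scoring 108 (chr2:54855235-54855387, plus strand, hg19), with the site at residue 566. This is the single 8mer on the transcribed strand in any peak of the 3 genes. The second was the exon 26 peak, scoring 87 (chr2:54876751-54876864), whose 7mer-A1 begins at the exon's second base, so that the match sits at the 5' edge of the peak. Measured from the peak's centre, negative values lying upstream, the middle of this site was at -51.5 bases. The middle of the exon 13 site was at -22.5, and the DYNC1H1 sites were at 4.5, -19 and -38 and the CLTC exon 30 site at -6.5. The third was an exon 25 peak scoring 74 (chr2:54876281-54876327) with no listed site.

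The other 11 SPTBN1 coding peaks had no listed site, and 5 of them scored above 15, the median of all peaks. After its matched peak, exon 26 held peaks scoring 5, 5, 6 and 18. Exon 21 held peaks scoring 6, 9 and 17, exon 25 a peak scoring 18, exon 20 a peak scoring 12, exon 12 a peak scoring 22 and exon 14 a peak scoring 33. The value of 5 is the lowest score in the table.

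The CLTC peaks formed a 5' and a 3' group. Of 10 coding peaks, 5 lay in exons 3, 5 and 6 and 5 in exons 23, 27 and 30, with none in exons 7 to 22 (2631 bases, 52.4% of the coding sequence). The 3' group held the single coding 7mer of the gene. Its exon 30 peak scored 150 (chr17:57763015-57763120, plus strand, hg19), with the 7mer-m8 at residue 1573, and the next peak of that exon scored 7. Exon 23 held 2 peaks scoring 22 each, and exon 27 a peak scoring 24.

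The highest CLTC peak had no site listed in the table. It lay in exon 3 (chr17:57724799-57724928), scored 155, and was followed after 6 bases by a peak scoring 66. Only 23 of the 1900 coding peaks without a site in the whole table scored above 155. The GENCODE sequence of exon 3 does contain a 6mer at residue 121, which the table does not list; none of the 130 6mers listed in coding exon peaks had the same 9 bases. No listed site places these peaks on the mRNA. If both lie inside the exon, the first base of the 6mer would be between base 73 and base 113 of the 130 bases of the peak scoring 155.
CLTC exon 3, unlisted 6mer: ctTGTTACg
Exon 5 held peaks scoring 57 and 29 with no site. Exon 6 held a peak scoring 43 with a listed 6mer at residue 304, whose centre lay 1.5 bases from the peak's centre.
CLTC exon 6, listed 6mer: agaaacaattttTGTTACtgcacctcatga

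The 3 peaks in 3' UTRs scored 13 to 26, and 2 of them were above the median of all peaks, 15. The CLTC 3' UTR peak with a 7mer-A1 scored 21 (chr17:57771680-57771769), against 150 for the coding 7mer-m8 of the same mRNA. The other CLTC 3' UTR peak scored 26 (chr17:57771850-57771948) and listed an 8mer on the opposite strand only, so the sense RNA there reads TGTAACAG. The SPTBN1 3' UTR peak scored 13 (chr2:54896489-54896549), with a 6mer and a variant. The first base of TGTTAC in the 6mer and the first base of GTTAC in the variant lie 13 bases apart. DYNC1H1 had no 3' UTR peak. Its GENCODE 3' UTR of 5880 bases holds 1 7mer-A1 and 1 6mer. Peak parts and gene names are the deposited annotation, whose 3' UTR may end elsewhere. A peak at these sites could therefore carry another label, which was not checked. The CLTC sites are printed to show the sense match, in capitals, and the reverse complement of the 8mer, also in capitals.
CLTC 3' UTR, 7mer-A1: ttattgaaaaaTGTTACAgacaacttgcct
CLTC 3' UTR, opposite-strand 8mer: ctcacttcataTGTAACAGgtgcccttatg

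Every 7mer match present in the coding sequences of the 3 mRNAs was listed in a peak. DYNC1H1 had 3 of 3, SPTBN1 2 of 2 and CLTC 1 of 1. Among 1567 other genes with a coding exon peak, 377 of 696 coding 7mers (54.2%) were listed. Among the 179 of these with at least 5000 coding bases it was 61 of 172 (35.5%), and among the 10 genes with the most coding peaks after the members it was 18 of 20 (90.0%). The genes were picked for having many coding peaks, so the 6 of 6 is a description without a test. Coding 7mers numbered 0.230 per 1000 coding bases in the 3 genes, a value that rests on 6 sites, beside 0.169 in the other genes, 0.120 in the other long ones and 0.333 in the 10 genes with the most coding peaks after the members.

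**Figure D2:**
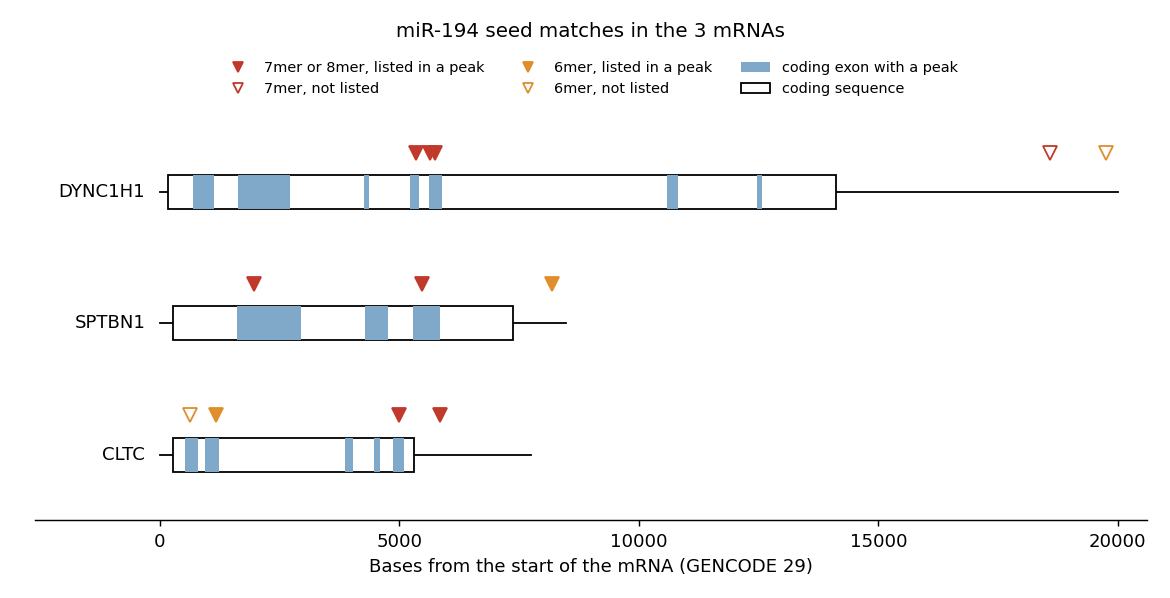
The 3 mRNAs to scale in bases from their start, with UTRs as lines, coding sequence as boxes and coding exons with a peak in blue. Triangles mark each miR-194 7mer or 6mer, filled where the site is listed in a peak of that gene. All 6 coding 7mers are filled, and the open symbols are the DYNC1H1 3' UTR sites and the CLTC exon 3 6mer.

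Most of the highest scores stood at matched coding peaks, while the share of peaks with a match was near that of the whole table. A 7mer match was listed in 6 of 42 coding peaks of the 3 genes (14.3%, exact 95% interval 5.43 to 28.5%), beside 15.0% of all coding exon peaks, and in 7 of all 46 peaks (15.2%), beside 13.4% of all peaks. Any site on the transcribed strand was listed in 10 of the 42 (23.8%), beside 26.0% of all coding exon peaks. In ascending order the matched scores were 87, 87, 108, 126, 150 and 257, and their median was 117. The 32 coding peaks without a listed site had a median of 20 and a range of 5 to 155. The lowest matched score, 87, was taken as a limit, so all 6 matched peaks reach it by construction. Of the other 36 coding peaks 2 reached it, the CLTC exon 3 peak without a listed site and the DYNC1H1 exon 4 variant peak. The DYNC1H1 exon 27 peak without a listed site, scoring 86, fell just below this limit. Over all coding exon peaks, 7.01% scored at least 87, the median was 34.5 with a 7mer match (386 peaks) and 15 without any site (1900 peaks). That matched peaks score higher is a pattern of the whole table, so these genes are not separate evidence for it. Peaks of 1 mRNA share their transcript and are not replicates, and no p-value is given.

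**Figure D3:**
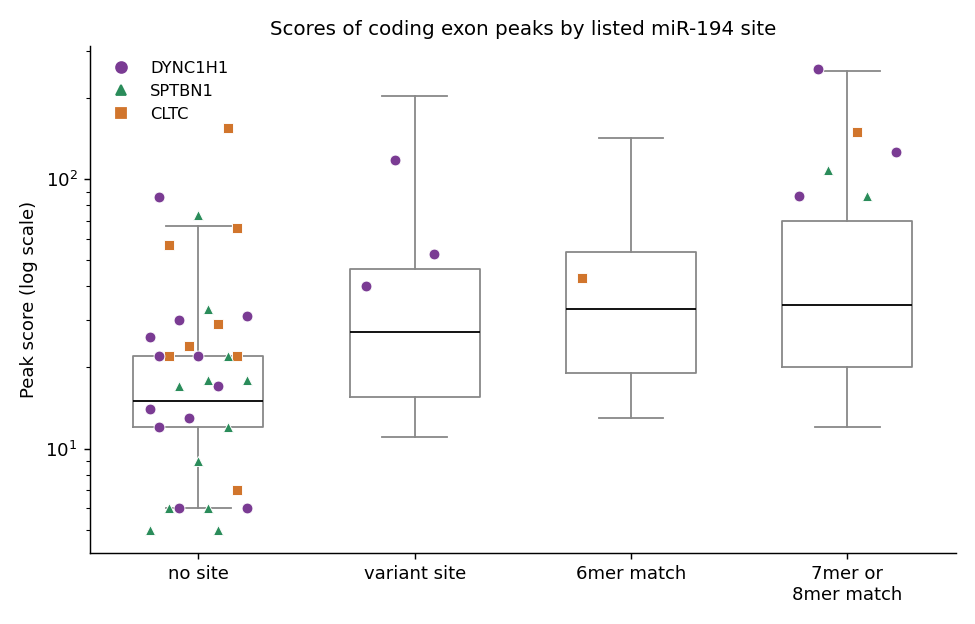
Scores (log axis) of coding exon peaks by listed miR-194 site. Points are the 42 coding peaks of the 3 genes, boxes show the median and quartiles of the other genes' peaks, and whiskers their 5th and 95th percentiles; the 6 matched points lie between 87 and 257.

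Matched peaks were also long. The 6 coding peaks with a 7mer had a median length of 124.5 bases (range 95 to 162), against 57.5 bases for the 32 without a listed site (3 to 225). Over all coding exon peaks the medians were 90.5 and 63 bases. The part of length in the score difference was not tested in these genes.

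Among the 3 genes the share of close neighbouring peaks was highest in DYNC1H1. Of its 18 pairs of adjacent peaks 11 (61.1%) were at most 10 bases apart, against 3 of 14 (21.4%) in SPTBN1 and 4 of 11 (36.4%) in CLTC. With a limit of 100 bases the contrast was smaller, at 61.1% in DYNC1H1, 50% in SPTBN1 and 45.5% in CLTC. The differences between the genes were not tested. Of the 43 pairs of adjacent peaks within a gene, 18 (41.9%) were at most 10 bases apart, beside 44.0% of pairs in the other genes. With peaks at most 100 bases apart joined, DYNC1H1 had 8 stretches, SPTBN1 8 and CLTC 7. Only 2 genes of the table had more stretches than DYNC1H1 and SPTBN1, and 6 had more than CLTC. Of the 5 stretches that hold several peaks and a 7mer match, 4 had the match in the highest peak; the exception was the CLTC 3' UTR. In the other genes 311 of 373 such stretches did (83.4%).

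In several exons the edges of the peaks coincided with those of the exon. Listed sites place the peaks on the mRNA in 8 coding exons. In 5 of these (DYNC1H1 exons 4 and 25, SPTBN1 exons 13 and 26, CLTC exon 6) the last peak ended at the exon's last base, and in 3 it passed the end, by 14 bases in DYNC1H1 exon 27, 19 in CLTC exon 30 and 32 in DYNC1H1 exon 19. The first peak began within 1 base of the exon's start in 4. DYNC1H1 exon 25 and SPTBN1 exons 13 and 26 had peaks at both edges, within 1 base. CLTC exon 5, where no site places the peaks, has 114 bases and peaks spanning 113.

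Set against their length, the 3 genes ranked near the top among long genes but not among all genes. Coding peaks numbered 1.29 per 1000 coding bases in DYNC1H1, 1.97 in SPTBN1 and 1.99 in CLTC, beside a median of 0.687 over the 1567 other genes with a coding peak. Of 1570 genes compared, 356 had more per length than DYNC1H1, 168 more than SPTBN1 and 166 more than CLTC. Of the 182 genes with at least 5000 coding bases, 3 had more than DYNC1H1, 1 more than SPTBN1 and 0 more than CLTC. With 5037 coding bases CLTC was the shortest of these, as 181 genes were longer, so a slightly higher length limit would leave it out. Every gene compared has at least 1 coding peak, so the lowest possible value is higher in a shorter gene. The genes were chosen by their number of peaks, which enters these values, so the ranks are a description without a test. The median was 0.213 in the other long genes. The peaks covered 10.1% of the coding bases of DYNC1H1, 14.9% of SPTBN1 and 14.0% of CLTC. This CLTC share was taken from the transcript of its exon map, with 5025 coding bases. Abundance of the mRNAs was not measured, so more RNA and more AGO2 per RNA cannot be told apart.

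**Figure D4:**
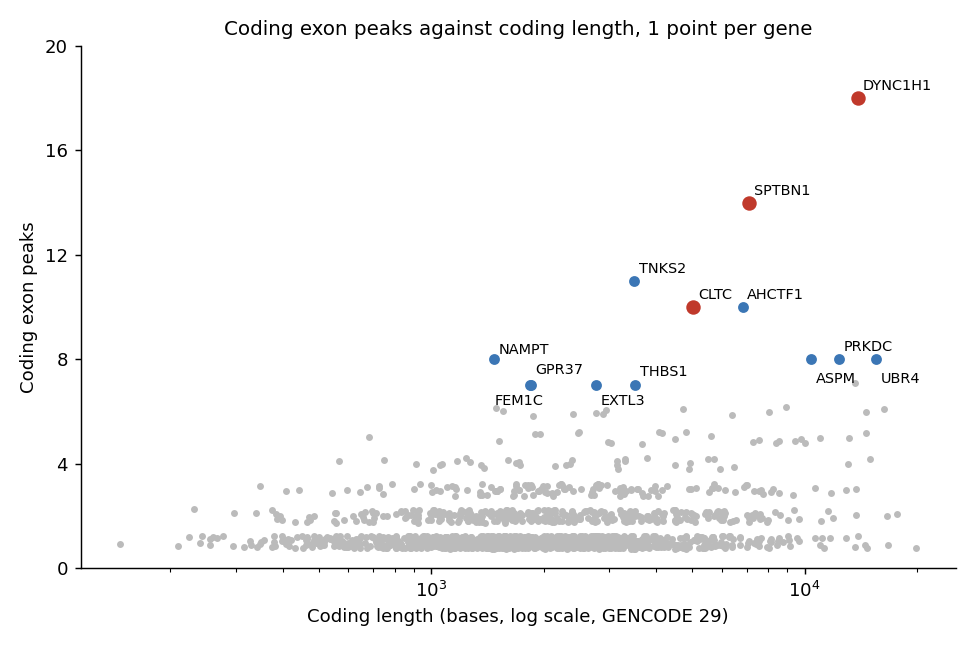
Coding exon peaks against coding length (log axis), 1 point per gene with at least 1 such peak; grey points are shifted slightly up or down so that they can be seen. The 3 members (red) have 18, 14 and 10 peaks, and the 10 genes most like them (blue) have 7 to 11.

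The genes most like the members, by number of coding exon peaks, were of mixed function. TNKS2, a poly-ADP-ribosylating tankyrase, had 11 coding peaks with a top score of 368, and 4 of its 5 coding 7mers were listed. AHCTF1, a nuclear pore assembly factor, had 10 with a top score of 178 and 3 of 3 listed. The long genes PRKDC (a DNA repair kinase), UBR4 (a ubiquitin ligase) and ASPM (a spindle pole protein) had 8 each, with top scores of 243, 40 and 130 and all of their 2, 1 and 3 coding 7mers listed. NAMPT, of NAD synthesis, had 8 in only 1473 coding bases and a top score of 316. GPR37 (an orphan receptor), THBS1 (a matrix glycoprotein), FEM1C (a ubiquitin ligase substrate receptor) and EXTL3 (of heparan sulfate synthesis) had 7 each, with top scores of 127, 41, 72 and 23.

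The partner genes of the 3 proteins were read from 3 lists. Of 27 genes for dynein, dynactin and their adaptors 12 had a peak, of 19 for the spectrin skeleton 3, and of 31 for clathrin coats 12, with at most 4 peaks in a gene. The share of all human genes that have a peak was not worked out, so these counts cannot be called high or low. Over the 3 lists together, 27 genes had a peak. A 7mer match was listed in a peak of 6 of these (22.2%), beside 23.6% of all genes with a peak. In the dynein list these were BICD2, an adaptor that links dynein to cargo (64, 3' UTR, 7mer-A1), and PAFAH1B1, the dynein regulator LIS1 (25, 3' UTR, 7mer-A1). In the clathrin list they were SNAP91, a clathrin assembly protein of synapses (54, 3' UTR, 8mer), the adaptor subunits AP1B1 (23, 3' UTR, 7mer-m8) and AP2B1 (28, exon 13 of 22, 8mer), and the phosphatase SYNJ1 (31, exon 4 of 28, 7mer-A1). The next values, for every dynein, spectrin and clathrin subunit gene of the lists that had a peak, were chosen after they were seen. The alpha spectrin gene SPTAN1 had 2 coding peaks, the higher scoring 17, without a site. The clathrin light chain genes CLTA and CLTB had top scores of 20 and 52, without a site, and the dynein intermediate chain gene DYNC1I2 had 1 peak scoring 25 with a variant. The light intermediate chain gene DYNC1LI2 had 4 peaks with a top score of 30, the light chain gene DYNLL1 had 3 with a top score of 28, both without a site, and the light chain gene DYNLT3 had 1 scoring 28 with a variant. DYNC2H1, the heavy chain of the ciliary dynein, had 3 coding peaks, the highest scoring 31 without a site and another scoring 13 with a 6mer. CLTCL1, a close paralog of CLTC, had 1 coding peak scoring 15. The sources used here do not say how reads shared by the paralogs were placed.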

How the data were processed

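AGO2 HITS-CLIP libraries of 22RV1 cells (3 mimic, 3 control) were represented by 1 deposited table. Tools named in the submitters' processing notes are MACS2, TopHat2 2.0.9, cutadapt 1.8.1, SAMtools and FastQC; the build is hg19, and no settings are given. The authors' deposited score is a whole number from 5 to 1270 per merged, strand-specific peak; its meaning, and whether libraries were pooled, are not given in the sources used here. It served only to rank and describe peaks, with no test. There were 0 columns of other samples. Positions are the deposited hg19 coordinates.

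Listed sites were classed by their bases. The deposited transcript accessions were matched to GENCODE 29 (GRCh38), whose exon counts equalled those in the table for the member transcripts, and each site was located by its bases within its exon; 14 of 15 were found. The 4 pairs of sites in 1 exon had equal distances on both. No coordinate was converted. Coding length and coding 7mers per gene came from 1 matched transcript each for 1570 of 1591 genes (98.7%). For CLTC that transcript has 5037 coding bases, while the CLTC exon map follows another with 5025. A gene's coding 7mer counted as listed when its 9 bases stood among that gene's listed coding sites.

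Genes were named by rule: the members, genes of the 3 partner lists with a 7mer match, and the 10 other genes with most coding peaks. Members and lists were chosen with earlier results of these data known. Shares have exact 95% intervals. Site classing and merging were tested on simulated data. Python 3.11.15, numpy 2.4.6, pandas 2.3.3, scipy 1.17.1 and matplotlib 3.10.9 were used.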

Additional observations from a re-analysis of the deposited data

How the results depend on the processing

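No paired analysis was possible because the table has no value per library, so leaving out a replicate could not be done either. Of 33 recomputed values under 12 settings, 27 stayed within 1.5 times (counts), the 95% interval (shares) or the quartiles of the scores (medians). With peaks within 100 bases joined, the peaks per gene became 8 in DYNC1H1, 8 in SPTBN1 and 7 in CLTC, by construction. Keeping only peaks above the median score left 8 in SPTBN1 and 15 of the partner genes with a peak. Counting 8mers alone, 2.17% of the 46 peaks held a match. The coding share lay between 88.9% and 94.1% in all settings run, including without each gene in turn. The genes were chosen by that share, so its steadiness is a description. Peaks per coding length from a protein table was not run, and GENCODE coding length, chosen after seeing the data, was used instead. Depth is unknown and limits every value.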
